A study of Mus musculus with 10 samples.

Results

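Olfactory receptor (Olfr) and vomeronasal receptor (Vmn1r and Vmn2r) genes were examined in CUT&RUN maps of cultured mouse muscle stem cells (MuSCs). Members were taken as the autosomal genes whose symbol starts with Olfr or Vmn in the tables of H4K20me1 and of Pol II S2P, and the scores of all peaks listed with the same gene identifier were summed. For H4K20me1, 84 such genes were listed among 13763 autosomal genes, made up of 75 Olfr, 7 Vmn1r and 2 Vmn2r genes. For Pol II S2P, 14 were listed among 11037, made up of 12 Olfr and 2 Vmn1r genes. In all, 96 receptor genes were listed in either table, and 2 of them, Olfr15 and Olfr1382, in both.

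CUT&RUN releases DNA around an antibody-bound target with a tethered nuclease. One antibody was raised against H4K20me1, the monomethylated form of lysine 20 of histone H4. The other was against Pol II S2P, which is RNA polymerase II with phosphorylated serine 2 in its C-terminal domain, as found during elongation. Control cells (Ctrl, labelled Pax7CreERT/Suv4-20h1WT) came from mice with intact Kmt5b, the gene of an H4K20 methyltransferase also named Suv4-20h1, and sKO cells (labelled Pax7CreERT/Suv4-20h1KO) from mice with floxed Kmt5b alleles. Both genotypes carried Pax7CreERT, a tamoxifen-inducible Cre that is active in Pax7-expressing satellite cells, so deletion is limited to these cells and their progeny. The study describes intraperitoneal injection of tamoxifen, and its scheme of the treatment names both Ctrl and sKO mice. The animals were young adults on a C57BL/6 background, and the MuSCs were enriched from limb and trunk muscle and grown in culture. For each antibody there were 2 libraries per genotype, which the study describes as biological replicates. The labels do not tie the libraries to separate animals or cultures, so p-values measure the spread between these libraries only. With 2 libraries against 2, an exact permutation test cannot give a two-sided p under 0.333.

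Each of these genes encodes a G protein-coupled receptor. A mature olfactory sensory neuron expresses a single Olfr allele out of a very large repertoire, and vomeronasal neurons likewise express few Vmn receptors. Elsewhere these genes are mostly silent. They lie in tandem arrays on many chromosomes, are short and AT-rich, and in sensory neurons the silent copies are packed into heterochromatin. H4K20me1 is laid down by KMT5A and converted to di- and trimethylated forms by KMT5B and KMT5C, and it is found over the bodies of many transcribed genes as well as on the inactive X chromosome.

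The scores are whole numbers per peak that the methods call coverage normalised by spike-in, and they are not divided by peak length. The autosomal sum of H4K20me1 scores lay between 13533657 and 18103713 in Ctrl and between 29655556 and 32238286 in sKO. For Pol II S2P it lay between 3224367 and 4836482 over the 4 libraries. The scores do not show the depth in reads, but the study lists uniquely mapped reads per library. For both antibodies these were more in either sKO library than in either Ctrl library. The H4K20me1 Ctrl libraries were close to each other in reads. The part of depth was not tested. Kmt5b itself had H4K20me1 scores of 1332 and 1740 in Ctrl against 1934 and 2196 in sKO, and for Pol II S2P it had 24 and 62 in Ctrl against 48 and 22 in sKO, which do not check a deleted exon. Of 9 satellite cell markers, 7 were listed for Pol II S2P, and Pax7 had scores of 274 and 356 in Ctrl against 355 and 332 in sKO. Of 7 markers of olfactory or vomeronasal sensory neurons, Omp, Gnal, Adcy3, Cnga4 and Gap43 had no Pol II S2P peak, Ncam1 had a mean score of 10828, and Stoml3 had 14 and 13 in Ctrl against 42 and 7 in sKO. Of 3 immune markers, 2 were listed for Pol II S2P, with Cd68 at 863 and 952 in Ctrl against 1308 and 840 in sKO. Of 3 endothelial markers, 1 was listed, Pecam1, with 82 and 119 in Ctrl against 147 and 84 in sKO. The fibro-adipogenic marker Col1a1 stood apart in Ctrl replicate 1, with a Pol II S2P score of 1093 against 16, 75 and 31 in the other 3 libraries, and its part in the results was not tested.

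Most receptor genes lay in no H4K20me1 peak. GENCODE M21, on the GRCm38 assembly that the tables use, holds 1960 autosomal Olfr and Vmn genes, of which 1457 are protein-coding. A peak overlapped 99 of these 1457, or 6.79%. The share was 7.89% of 1128 Olfr genes, 3.37% of 208 Vmn1r genes and 2.48% of 121 Vmn2r genes, and it was 4.57% of 503 receptor pseudogenes and other biotypes. Among 2162 protein-coding genes of other kinds within 1 Mb of an array of 3 or more receptor genes, 68.3% overlapped a peak, and among all 19287 such autosomal genes 77.6% did. The peaks are 1 set shared by the 4 libraries, so these shares hold for both genotypes together, and they are counts with no test.

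The gap between these shares was also present among short genes. Of receptor genes up to 10 kb long, 79 of 1148 (6.88%) overlapped an H4K20me1 peak, against 495 of 882 (56.1%) of the other protein-coding genes of that length near the arrays. Measured in bases, H4K20me1 peaks covered 5.50% of the 53 arrays of 3 or more genes, which span 66.6 Mb, and 3.83% of the 12 arrays of 50 or more, against 24.7% of the autosomes. Pol II S2P peaks covered 0.396% of the arrays of 3 or more genes and 1.04% of the autosomes. Alignments were kept by the authors only where they were unique, so near-identical receptor genes may have lost reads. The part this plays was not tested.

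Receptor genes with H4K20me1 lay close to genes of other kinds. Of the 188 protein-coding receptor genes within 25 kb of a non-receptor protein-coding gene, 46 (24.5%) overlapped a peak. The share was 15.3% at 25 to 50 kb, 6.48% at 50 to 100 kb, 2.58% at 100 to 200 kb and 0.729%, or 4 of 549 genes, beyond 200 kb. The share thus fell in every step of distance. The median distance to the nearest such gene was 28.9 kb for receptor genes in a peak and 146 kb for the others.

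**Figure D1:**
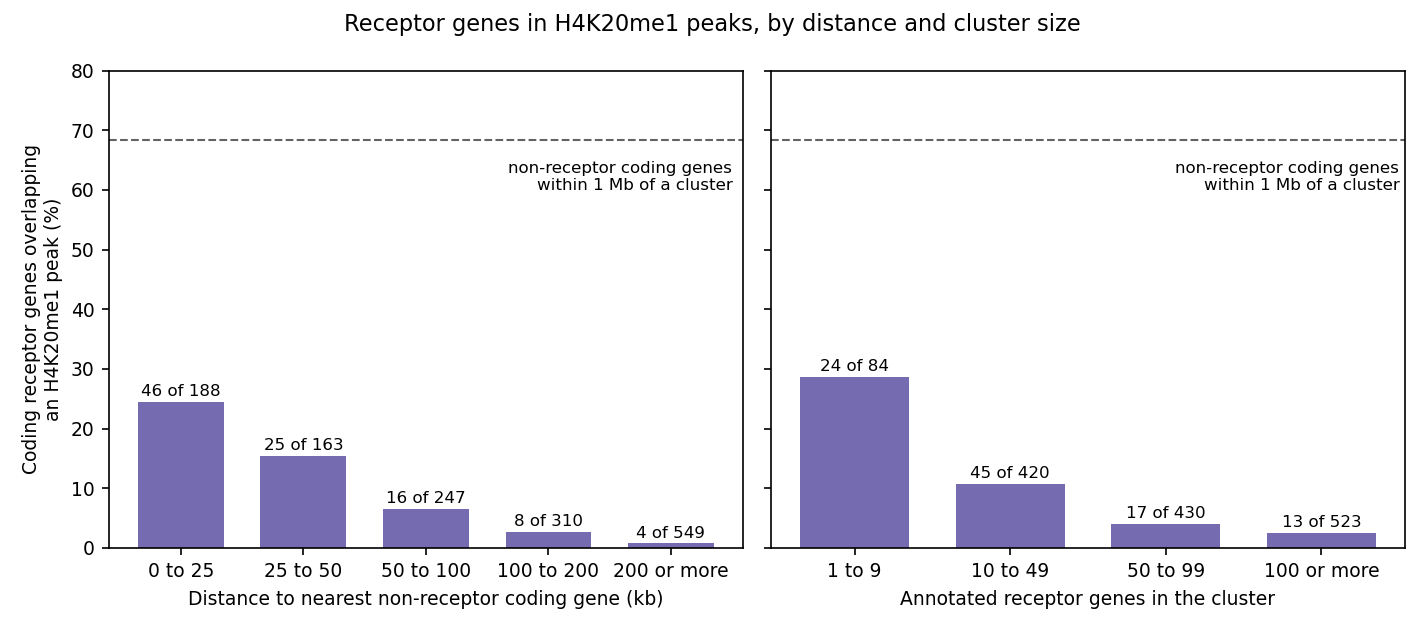
Percent of protein-coding autosomal receptor genes that overlap an H4K20me1 peak, by distance to the nearest non-receptor protein-coding gene and by size of the receptor array, with the gene counts written at the bars. A dashed line marks the 68.3% of non-receptor genes near the arrays. The receptor share, 6.79% over all, falls from 24.5% to 0.729% with distance and from 28.6% to 2.49% with array size.

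The size of the array went with the same gradient. Arrays (clusters) were defined by joining annotated receptor genes no more than 1 Mb apart, which gave 88, of which 56 held 2 or more genes and 33 held a gene listed for H4K20me1. A peak overlapped 24 of 84 protein-coding receptor genes (28.6%) in arrays of 1 to 9 genes, 45 of 420 (10.7%) in arrays of 10 to 49, 17 of 430 (3.95%) in arrays of 50 to 99, and 13 of 523 (2.49%) in larger ones. Within the 12 arrays of 50 or more genes, counting pseudogenes, 20 of the 120 genes among the outermost 5 at either end overlapped a peak (16.7%), against 19 of 1140 inner genes (1.67%). Within these large arrays the share of protein-coding receptor genes in a peak also fell with distance to a non-receptor gene, from 11 of 95 (11.6%) within 25 kb to 8.60%, 2.86%, 2.08% and, beyond 200 kb, 3 of 433 (0.693%).

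Single arrays showed how unevenly the mark was spread. Receptor counts per array include pseudogenes, whereas the genes set beside them are protein-coding only. The largest array, on chromosome 2 from 85.3 Mb, held 287 receptor genes, 227 of them protein-coding, with none in an H4K20me1 peak. Of the 54 non-receptor protein-coding genes in it or within 1 Mb, 46 had one. No receptor gene was covered either in the arrays on chromosome 7 from 5.1 Mb (114 genes), 106.7 Mb (80 genes) and 84.8 Mb (59 genes) or on chromosome 9 from 18.8 Mb (49 genes). The array on chromosome 7 from 102.5 Mb had 10 of 156 genes covered. In contrast, 8 of 26 genes were covered on chromosome 11 from 58.5 Mb, 10 of 44 on chromosome 11 from 73.4 Mb, and 7 of 8 in the small array on chromosome 1 from 92.5 Mb.

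**Figure D2:**
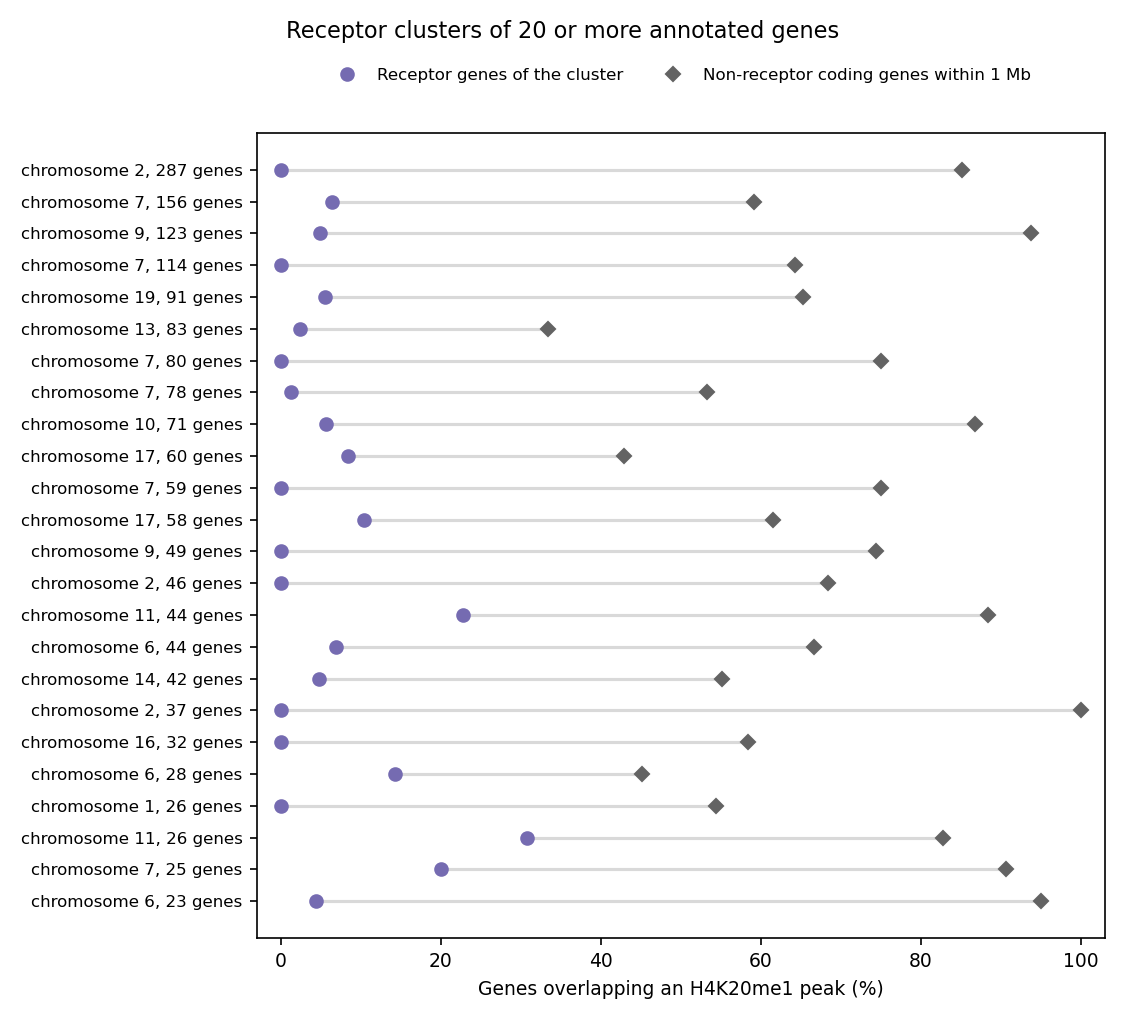
Arrays of 20 or more annotated receptor genes, with the percent of receptor genes and the percent of non-receptor protein-coding genes within 1 Mb that overlap an H4K20me1 peak. The receptor genes include pseudogenes. In each of the 24 arrays the receptor share was the lower, between 0% and 30.8% against 33.3% to 100%, and in 9 arrays no receptor gene overlapped a peak.

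The bases before receptor starts differ from those of other genes and are shown for members at the upper and lower end of the change in H4K20me1 score. The 300 bases before the annotated start held a median of 1 CG dinucleotide and 42.7% G or C in 82 receptor genes listed for H4K20me1, and 1 and 36.7% in 1376 that were not. In 723 neighbouring non-receptor genes the medians were 13 and 56%. Printed 5′ to 3′ on the gene's strand from GRCm38, with CG dinucleotides in capitals, are Olfr965 (chr9:39711053-39711352, plus strand), which had one of the largest increases, Olfr633 (chr7:103944137-103944436, plus strand) and Olfr395 (chr11:73909300-73909599, minus strand), which had some of the lowest log2 fold changes, and Zfp202 (chr9:40192016-40192315, plus strand), a zinc finger gene that neighbours the array of Olfr965.
Olfr965: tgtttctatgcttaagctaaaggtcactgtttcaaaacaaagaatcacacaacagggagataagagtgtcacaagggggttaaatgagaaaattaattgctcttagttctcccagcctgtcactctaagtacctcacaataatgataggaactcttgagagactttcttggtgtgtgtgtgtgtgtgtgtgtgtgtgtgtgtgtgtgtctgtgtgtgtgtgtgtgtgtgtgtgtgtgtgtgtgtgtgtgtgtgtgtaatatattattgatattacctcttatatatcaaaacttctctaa
Olfr633: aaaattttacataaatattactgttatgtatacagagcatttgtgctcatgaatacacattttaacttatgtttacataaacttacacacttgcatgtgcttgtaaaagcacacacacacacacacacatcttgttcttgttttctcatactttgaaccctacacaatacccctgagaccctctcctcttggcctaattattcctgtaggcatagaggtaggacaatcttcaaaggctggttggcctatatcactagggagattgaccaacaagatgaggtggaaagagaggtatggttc
Olfr395: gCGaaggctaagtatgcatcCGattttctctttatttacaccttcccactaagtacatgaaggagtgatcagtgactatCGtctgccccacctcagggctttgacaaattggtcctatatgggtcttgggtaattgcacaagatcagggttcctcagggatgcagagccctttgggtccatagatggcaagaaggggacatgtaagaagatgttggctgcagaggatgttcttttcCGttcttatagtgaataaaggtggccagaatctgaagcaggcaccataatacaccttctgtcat
Zfp202: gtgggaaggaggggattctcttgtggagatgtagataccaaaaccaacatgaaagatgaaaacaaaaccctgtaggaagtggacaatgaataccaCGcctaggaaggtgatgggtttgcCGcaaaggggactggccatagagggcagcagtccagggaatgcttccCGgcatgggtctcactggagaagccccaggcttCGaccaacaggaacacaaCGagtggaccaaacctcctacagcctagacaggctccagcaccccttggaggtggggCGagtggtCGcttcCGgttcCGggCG

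The number of CG dinucleotides was 0 before Olfr965 and Olfr633, 4 before Olfr395 and 10 before Zfp202. Sites of the letters CCCNNGGG, resembling those of Ebf factors, TAATTA, the core of homeodomain sites such as those of Lhx2, and TATAAA, the TATA box, were searched on both strands, with overlaps between motifs allowed. CCCNNGGG was found in 23.2% of the windows of listed receptor genes, 13.1% of those not listed and 15.8% of 20801 windows of all protein-coding genes. TAATTA was found in 22.0%, 24.2% and 5.90%, and TATAAA in 17.1%, 35.3% and 13.8%. Of the windows printed here, TAATTA occurred before Olfr633, from base 195, and the other searches found no match. These are matches of letters and not binding sites.

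Where a receptor gene carried H4K20me1, its peak was short and its score low. The 92 peaks of the 84 listed genes had a median length of 5400 bases, against 11600 bases for peaks of neighbouring non-receptor genes, and 77 of the 84 genes had 1 peak. Neighbours here are the 725 tested protein-coding genes of other kinds inside or within 1 Mb of an array with a listed receptor gene, 2 of which (V1ra8 and OR5BS1P) carry receptor names of another style. The annotated start lay inside the gene's own peak in 51 of 84 genes, and in 34 genes less than 50% of the peak lay in the gene. The median peak had 40.9% G or C, against 46.5% for neighbours. Per kilobase of peak, the median score of tested receptor genes was below that of neighbours in Ctrl replicate 1 (17.8 and 19.7 score units per kb) and above it in Ctrl replicate 2 (29.6 and 26.8). In sKO, averaged over the replicates, it was 42.9 and 51.5. All receptor genes together made up 0.0988% and 0.108% of the autosomal H4K20me1 score in Ctrl and 0.103% and 0.104% in sKO.

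H4K20me1 at receptor genes was higher in sKO than in Ctrl on the deposited scale, with a smaller median change than at other genes that depended on the Ctrl replicates. Genes were tested with limma on log2(score + 1) where their mean score was over 50, which 83 of the 84 passed. Vmn1r33, with scores of 19 and 69 in Ctrl against 56 and 50 in sKO, did not. Calls needed a log2 fold change beyond 0.5 in either direction, with a p adjusted by the Benjamini-Hochberg method of less than 0.1. The call was higher for 61 of 83 receptor genes (73.5%) and lower for 0, where the background of all 13750 tested genes was 92.3% called higher and 0% lower. Unadjusted, limma gave a p under 0.05 to 54 receptor genes, all higher, against a background of 90.3%. Of the neighbours, 669 of 725 (92.3%) were called higher. Without sKO replicate 1, 32 receptor genes were called higher where 53.8% of all genes were, and without sKO replicate 2, 20 were where 38.2% of all genes were. Leaving out Ctrl replicate 1 gave 41, against 81.6% of all genes, and leaving out Ctrl replicate 2 gave 80 (96.4%), against 97.3% of all genes.

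The median log2 fold change was 0.84 over the tested receptor genes, with quartiles of 0.61 and 1.20, against 1.11 over all tested genes and 1.15 over the neighbours. The receptor median became -0.14 with libraries scaled to equal totals and -0.54 after quantile normalisation, where the median of all tested genes became 0.13 and 0.0017. With equal totals 8 receptor genes were called higher and 6 lower, against backgrounds of 20.8% and 5.69%. Relative to the median of all tested genes, the receptor median was -0.27 both on the deposited scale and with equal totals, -0.54 after quantile normalisation and -0.025 with a minimum mean score of 200. Equal totals shift the log2 fold changes of all genes by nearly the same amount, so this relative value could hardly differ. Without Ctrl replicate 1 the receptor median was 0.49, or -0.41 relative to all tested genes, and without Ctrl replicate 2 it was 1.24, or -0.087 relative to them. Both sKO libraries were above both Ctrl libraries in 59 of 83 receptor genes (71.1%), against a background of 96.5%. In the other 24 the genotypes overlapped, and in 0 were both sKO libraries below, against a background of 0.0364%. A score per bulk library cannot tell a higher level in each cell from a mark present in more cells.

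**Figure D3:**
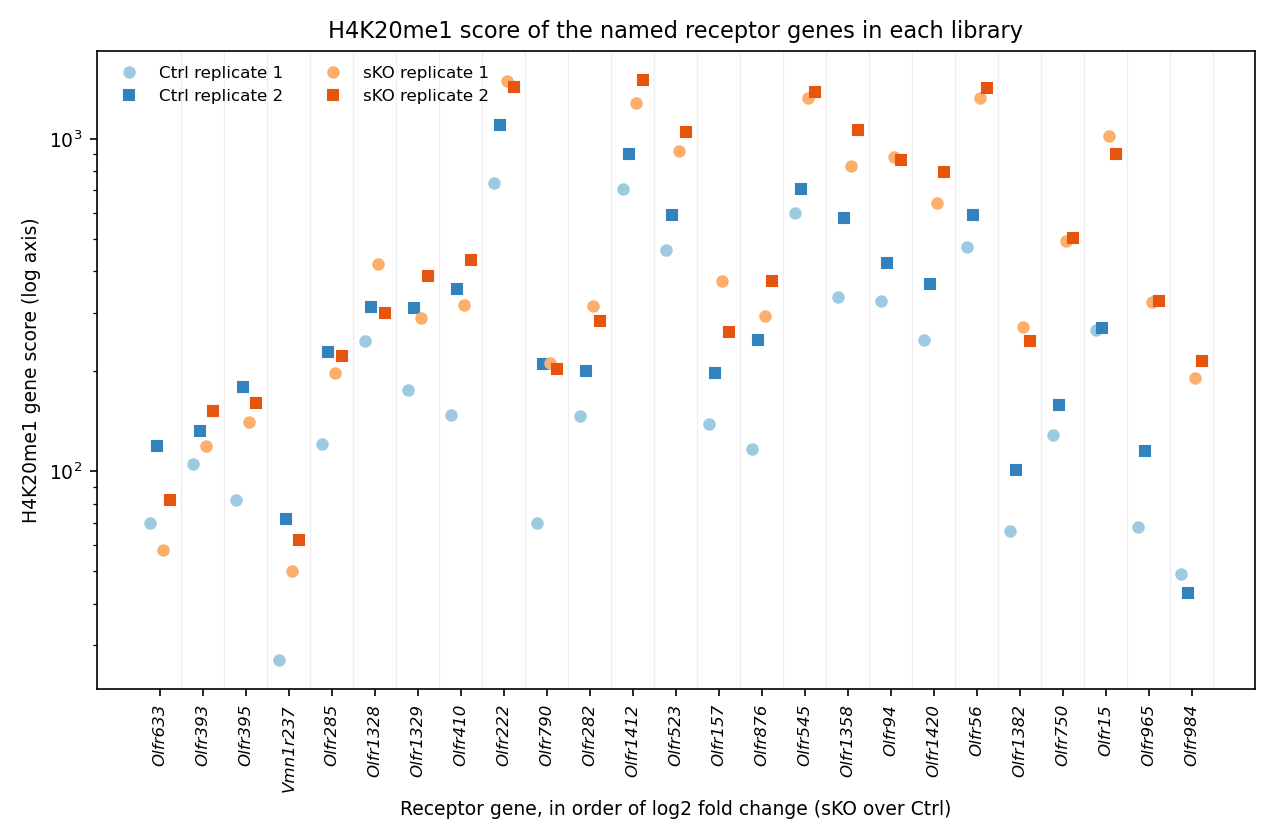
H4K20me1 score in each of the 4 libraries, on a logarithmic axis, for the 25 named receptor genes, with points for Ctrl and sKO replicates. The scores run from 27 in Vmn1r237 to 1506 in Olfr1412, and genotypes are widely separated in Olfr984, Olfr965, Olfr15 and Olfr750 and overlap in Olfr633, Olfr395 and Olfr790.

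The largest increases were in 4 olfactory receptor genes. Olfr984 had scores of 49 and 43 in Ctrl against 191 and 215 in sKO, and its log2 fold change was 2.12 ± 0.44 (SE; adjusted p = 5.1e-06 by limma). Its Ctrl mean of 46 was under 50, so it passed the minimum score only through its sKO mean of 203. Olfr965, in the same array on chromosome 9, had 68 and 115 in Ctrl against 323 and 326 in sKO (1.86 ± 0.35). In either gene the lowest sKO score was far above the highest Ctrl score. Olfr15, on chromosome 16, had 266 and 269 in Ctrl against 1022 and 901 in sKO (1.84 ± 0.27), and 1 of its 2 peaks also overlaps Zfp174, so part of the score is shared with that gene. Olfr750, on chromosome 14, had 129 and 158 in Ctrl against 493 and 504 in sKO (1.80 ± 0.30). These 4 genes also had log2 fold changes above 0 with equal totals, of 1.15, 0.89, 0.86 and 0.82. This scaling lowers all genes by nearly the same amount, so for the largest changes these values are no separate check.

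The 4 lowest log2 fold changes, taken with their sign, did not pass the test. Olfr633, on chromosome 7, had scores of 70 and 119 in Ctrl against 58 and 82 in sKO, and its log2 fold change was -0.40 ± 0.48 (adjusted p = 0.41 by limma). Olfr393 and Olfr395, in the array on chromosome 11 from 73.4 Mb, had 105 and 132 in Ctrl against 119 and 152 in sKO, and 82 and 179 in Ctrl against 141 and 161 in sKO. Their log2 fold changes were 0.19 ± 0.39 and 0.31 ± 0.38. Vmn1r237, on chromosome 17, had the lowest mean score of the genes tested among those named, 27 and 72 in Ctrl against 50 and 62 in sKO (0.33 ± 0.61). Its Ctrl mean of 49.5 was under 50, so it passed the minimum score only through its sKO mean of 56. The genotypes overlapped in all 4 genes. Without Ctrl replicate 1, Olfr633 was called lower, at a log2 fold change of -0.78. Without Ctrl replicate 2, Olfr395 (0.87) and Vmn1r237 (1.02) were called higher.

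In the 14 arrays with 3 or more tested receptor genes, the gene with the highest mean score was called higher in 13, against a background of 92.3%. Olfr222, on chromosome 11, had 735 and 1103 in Ctrl against 1498 and 1437 in sKO (0.70 ± 0.27), and its peak also overlaps Nlrp3, an inflammasome gene. Olfr1412, on chromosome 1, had 706 and 902 in Ctrl against 1282 and 1506 in sKO (0.80 ± 0.27), and Olfr545, on chromosome 7, had 597 and 708 in Ctrl against 1332 and 1380 in sKO (1.06 ± 0.27). In these 3 genes both sKO libraries were above both Ctrl libraries, and with equal totals their log2 fold changes were -0.28, -0.18 and 0.08. Olfr56 rose by 1.38, Olfr1420 by 1.24, Olfr94 by 1.23, Olfr1358 by 1.09, Olfr876 by 0.96, Olfr157 by 0.91, Olfr523 by 0.91 and Olfr282 by 0.80 on the log2 scale, each called higher with no overlap between genotypes. Leaving out a library cost several of these calls. Without sKO replicate 1, Olfr222, Olfr1412, Olfr545, Olfr157, Olfr523 and Olfr282 were not called (log2 fold changes of 0.66 to 1.08), and without sKO replicate 2, Olfr222, Olfr1412, Olfr545, Olfr1358, Olfr876, Olfr523 and Olfr282 were not (0.68 to 1.03). Without Ctrl replicate 1, Olfr222 (0.41) and Olfr876 (0.42) were not.

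A gene could be called higher although its libraries overlapped. Olfr790 had 70 and 210 in Ctrl against 212 and 203 in sKO (0.77 ± 0.36, limma, adjusted p = 0.035), and without Ctrl replicate 1 its log2 fold change was -0.02. Olfr410 had 148 and 353 in Ctrl against 317 and 432 in sKO, and Olfr1329 had 176 and 311 in Ctrl against 289 and 387 in sKO. Both were called higher, at 0.69 ± 0.29 and 0.51 ± 0.30, and without Ctrl replicate 1 their log2 fold changes were 0.07 and 0.10. In these 3 genes Ctrl replicate 2 lay within the sKO range while Ctrl replicate 1 was well below it. None of the 3 was called when either sKO replicate was left out. Olfr1328, with 247 and 313 in Ctrl against 420 and 300 in sKO, and Olfr285, with 121 and 228 in Ctrl against 198 and 223 in sKO, were not called, but passed without Ctrl replicate 2, at 0.52 and 0.79. Over all 83, the log2 fold change changed sign in 10 when single libraries were left out, and 20 of the genes called fell under 0.5 without Ctrl replicate 1.

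By family, 58 of 75 Olfr genes (77.3%) were called higher, with a median log2 fold change of 0.87, against a background of 92.3%. Of the 6 tested Vmn1r genes, which encode receptors of apical vomeronasal neurons, 2 were called higher, with a median of 0.52, against the same background. In 2 both sKO libraries were above both Ctrl libraries, against a background of 96.5%. The genes called were Vmn1r21, with 168 and 214 in Ctrl against 335 and 461 in sKO (1.05 ± 0.30), and Vmn1r234, with 68 and 142 in Ctrl against 183 and 152 in sKO (0.76 ± 0.39). Vmn1r234 was called neither without Ctrl replicate 1, at 0.23, nor without sKO replicate 1 or 2, at 0.62 and 0.89, and Vmn1r21 was not called without sKO replicate 2, at 0.82. Of the Vmn2r genes, which encode receptors of basal vomeronasal neurons, Vmn2r7 had 147 and 183 in Ctrl against 474 and 463 in sKO (1.51 ± 0.30) and was called. Vmn2r83 had 54 and 102 in Ctrl against 92 and 125 in sKO (0.52 ± 0.45) and was not. Families were not tested against each other, and the median score was 119 in Vmn1r and 210 in Olfr genes.

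Receptor genes were set beside their neighbours in the same arrays. The receptor gene had a smaller log2 fold change than its nearest tested neighbour in 61 of 83 cases, with a median difference of -0.34 at a median distance of 45.3 kb, and in 59 of 81 (-0.38) without V1ra8 and OR5BS1P as neighbours, a choice made after seeing the data. The receptor median was under the neighbour median in 26 of 32 arrays, and in 11 of the 14 with 3 or more tested receptor genes. On chromosome 11 from 73.4 Mb, where 3 of 7 receptor genes were called higher, the medians were 0.54 and 1.07 against 27 of 29 neighbours called. On chromosome 7 from 140.2 Mb they were 0.69 and 1.36. The order was the other way on chromosome 11 from 49 Mb, with 1.38 and 0.94, and on chromosome 4 from 43.7 Mb, with 1.23 and 0.90. Near Olfr984 (2.12), Zfp202 had 1.34, and near Olfr633 (-0.40), Trim68, 1257 kb away, had 1.40.

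The gap to the neighbours lay among genes with low scores. Of the receptor genes with a mean score of 300 or more, a limit chosen after the values were seen, 27 of 28 were called higher with a median of 1.12, and of the neighbours above that limit 542 of 588 were, with a median of 1.13, a difference of -0.01, where 93.2% of all genes above it were called higher. Under 300, 34 of 55 receptor genes were called higher with a median of 0.76, against 127 of 137 neighbours with a median of 1.29, a difference of -0.53, where 88.8% of all genes under it were called higher. The difference under 300 was also -0.53 with equal totals. That scaling shifts all genes by nearly the same amount, so it cannot check a difference between gene groups. Without Ctrl replicate 1 the difference was -0.81, and it was -0.35 without Ctrl replicate 2, when 52 of the 55 receptor genes and 97.4% of all genes under 300 were called higher.

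The Ctrl replicates differed more at receptor genes than elsewhere. In the median receptor gene the score in Ctrl replicate 2 was 1.62 times that in Ctrl replicate 1, against 1.32 times in neighbours and in all tested genes, and under a mean of 300 the ratios were 1.78 in receptor genes and 1.43 in neighbours. The ratio of the sKO replicates was 1.13 in receptor genes and 1.08 in neighbours. Over all tested receptor genes, the median minus the neighbour median was -0.31 with all libraries. Leaving out Ctrl replicate 1 gave -0.44, and leaving out Ctrl replicate 2 gave -0.12. The cause of the uneven Ctrl replicates was not tested.

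**Figure D4:**
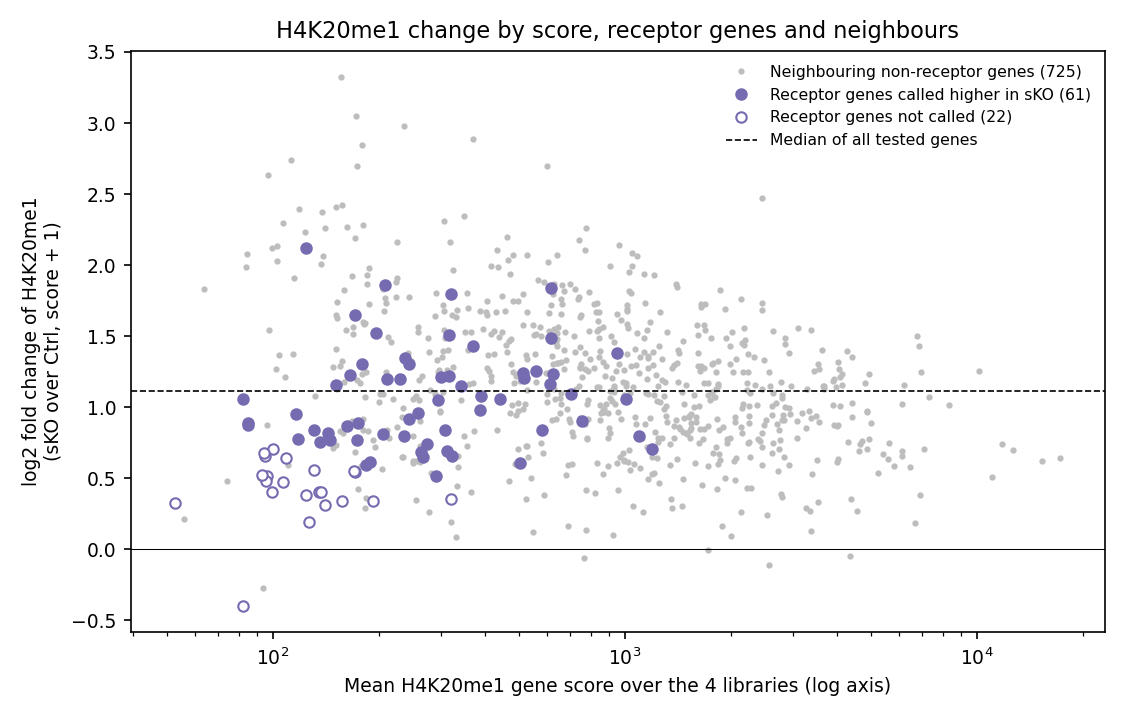
H4K20me1 log2 fold change (sKO over Ctrl, deposited scale) against the mean score of the gene on a logarithmic axis, for tested receptor genes and for neighbouring non-receptor genes. Receptor genes lie mostly at low scores, and their median is 0.76 against 1.29 of neighbours under a mean of 300 and 1.12 against 1.13 above it.

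In 5 listed genes the peak also overlapped another protein-coding gene of a different kind, namely Olfr222 with Nlrp3, Olfr94 with Ubd, Olfr56 with Ifi47, Olfr49 with Abhd4 and Olfr15 with Zfp174. All 5 were called higher, with a median log2 fold change of 1.38, against a background of 92.3%. For Olfr222, Olfr94 and Olfr49 the whole score lies in such a peak and cannot be assigned to either gene, and for Olfr15 and Olfr56 part of it does. Of the 78 other tested receptor genes, 56 were called higher with a median of 0.83, against the same background. Conversely, 27 annotated receptor genes were overlapped by a peak that the table lists with another gene, in 11 cases another receptor gene.

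The genes of the olfactory signalling cascade were compared as a further group, since they lie outside the arrays. Of 20 genes, 14 were tested for H4K20me1 and 13 of them were called higher, with a median log2 fold change of 1.19, against the background of 92.3%. Gnal, the olfactory G protein alpha subunit, had 1959 and 2679 in Ctrl against 4770 and 5692 in sKO (1.19 ± 0.28), and Adcy3, the adenylyl cyclase it activates, 1172 and 1651 in Ctrl against 2852 and 3069 in sKO (1.09 ± 0.28). Gnb1, a widely expressed G protein beta subunit, had 4096 and 5505 in Ctrl against 4134 and 4764 in sKO (-0.10 ± 0.29) and was not called. Of 17 genes linked to receptor choice, 16 were tested and 13 were called higher, with a median of 0.86, against the same background of 92.3%. Lhx2, a homeodomain factor of olfactory neurons, was called (0.92 ± 0.27), while Ehmt1, an H3K9 methyltransferase (0.49 ± 0.29), and Kdm1a, a histone demethylase (0.06 ± 0.27), were not. With equal totals the list medians were 0.21 and -0.12.

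Chemoreceptor genes of other families, namely trace amine, formyl peptide and taste receptors and the Ms4a family, were seldom listed as well. Of 79, 14 were tested for H4K20me1, of which 8 were Ms4a genes and 0 formyl peptide receptors. All 8 Ms4a genes, a family that also has members in immune cells, and 5 of the other 6 were called higher, 13 in all, with a median log2 fold change of 1.25 (0.28 with equal totals). The background was 92.3% called higher, so this count is near that share. Tas1r1, a subunit of the umami taste receptor, had 62 and 113 in Ctrl against 288 and 252 in sKO (1.67 ± 0.36). Taar6, a trace amine receptor, had 52 and 74 in Ctrl against 153 and 71 in sKO (0.74 ± 0.48) and was not called.

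Peaks of elongating polymerase were rare at receptor genes. A Pol II S2P peak overlapped 14 of the 1457 protein-coding receptor genes (0.961%), against 51.1% of the 2162 non-receptor genes near the arrays, and the annotated start lay in a Pol II S2P peak for 1 receptor gene. The 14 peaks had a median length of 270 bases. They lay in an intron in 8 genes, over a non-coding exon in 5 and over a coding exon in 1, Olfr70. The peaks of 2 genes lay within an H4K20me1 peak, that of Olfr15 in the gene's own and that of Olfr70 in one listed with Tmem8b. Together the 14 genes made up 0.0138% and 0.0141% of the autosomal Pol II S2P score in Ctrl and 0.0178% and 0.0173% in sKO.

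The Pol II S2P peaks of Olfr1390 and Olfr1382, both in the array on chromosome 11 from 49 Mb, are shown because the first had the largest change and the second was also listed for H4K20me1. Given on the plus strand of GRCm38, which is the strand of both genes, are the central 300 bases of the intronic peak of Olfr1390 (chr11:49337167-49337466) and the whole intronic peak of Olfr1382 (chr11:49532792-49532992). Capitals would mark CG dinucleotides, of which neither holds any.
Olfr1390: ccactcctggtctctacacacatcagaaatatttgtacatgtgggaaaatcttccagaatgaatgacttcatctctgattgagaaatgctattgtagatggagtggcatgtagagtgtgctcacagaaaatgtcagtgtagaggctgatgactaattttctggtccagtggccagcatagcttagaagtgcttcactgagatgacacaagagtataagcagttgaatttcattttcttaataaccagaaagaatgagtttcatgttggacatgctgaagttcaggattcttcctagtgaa
Olfr1382: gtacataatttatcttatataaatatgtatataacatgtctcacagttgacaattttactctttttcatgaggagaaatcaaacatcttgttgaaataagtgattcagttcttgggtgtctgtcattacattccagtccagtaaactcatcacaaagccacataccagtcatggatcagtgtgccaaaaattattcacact

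Of the searched motifs, TATAAA occurred in the Olfr1382 peak, from base 18, and no match was found in the bases shown of the Olfr1390 peak. Both peaks lay outside any H4K20me1 peak.

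No receptor gene was called for Pol II S2P on the deposited scale. Of the 14, 5 had a mean score over 50 and were tested, and limma called 0 of the 5, against a background of 0% of 8531 genes. In simulated scores the same fit called 31 of 99 genes with a true log2 fold change of 1 in size. A change of that size could thus be missed, and no call does not show that a gene was unchanged. The study, which used DESeq2 on the coverage of genes, reports increased Pol II S2P at many genes. At an unadjusted p under 0.05 there was 1 receptor gene, higher in sKO, and over all genes 95 (1.11%) were higher and 5 (0.0586%) lower. Olfr1390 had scores of 32 and 27 in Ctrl against 92 and 81 in sKO, and its log2 fold change was 1.52 ± 0.53 (adjusted p = 1 by limma), and leaving out single libraries gave 1.40 to 1.64. With libraries scaled to equal totals it was called, at 1.38 (limma, adjusted p = 0.026), where the background was 1.27% called higher and 0.856% lower. The Ctrl and sKO libraries did not overlap in this gene. Its Ctrl mean of 29.5 was under 50, so it was tested only through its sKO scores.

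In the other 4 tested genes the scores overlapped or lay close. Vmn1r4 had 30 and 52 in Ctrl against 61 and 65 in sKO (0.66 ± 0.54), and Olfr267 had 121 and 140 in Ctrl against 289 and 155 in sKO (0.70 ± 0.41). Both sKO libraries were above both Ctrl libraries in these genes and in Olfr1390, 3 of 5, against a background of 9.41%, and in 0 of 5 were both below, against 4.52%. Olfr16 had 51 and 61 in Ctrl against 62 and 31 in sKO (-0.34 ± 0.54), and Olfr70 had 61 and 85 in Ctrl against 78 and 65 in sKO (-0.02 ± 0.47). The genotypes overlapped in both. The peak of Olfr267 extends outside the gene and 56.3% of its bases are annotated as repeats.

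**Figure D5:**
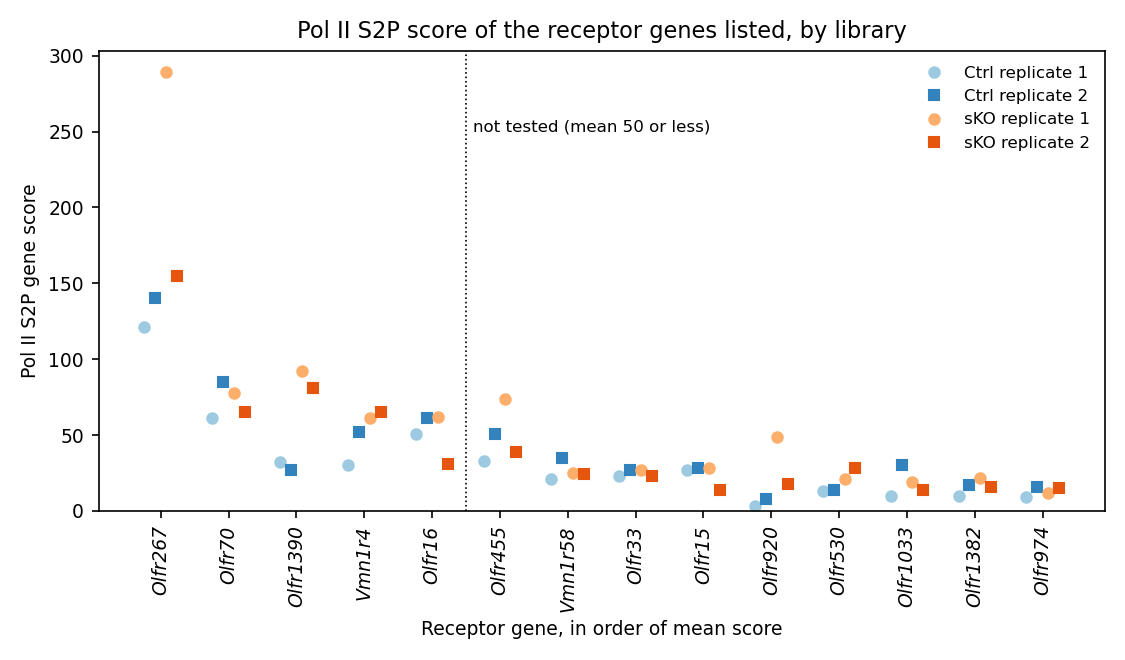
Pol II S2P score in each of the 4 libraries for the 14 listed receptor genes, with a line at the mean score of 50 above which genes were tested. Most scores lie under 100, Olfr267 reaches 289 in sKO replicate 1, and Olfr1390 has 81 and 92 in sKO against 27 and 32 in Ctrl.

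Of the 9 genes not tested, Olfr455 had the highest scores, 33 and 51 in Ctrl against 74 and 39 in sKO. Olfr920 had 3 and 8 in Ctrl against 49 and 18 in sKO, the widest separation among them, at scores where small differences weigh heavily. Olfr530 had 13 and 14 in Ctrl against 21 and 28 in sKO. Vmn1r58 had 21 and 35 in Ctrl against 25 and 24 in sKO, Olfr33 had 23 and 27 in Ctrl against 27 and 23 in sKO, and Olfr15 had 27 and 28 in Ctrl against 28 and 14 in sKO. The genotypes overlapped in these 3 genes. The remaining Olfr1033, Olfr974 and Olfr1382 had scores of 9 to 30, with overlap as well.

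Olfr15 and Olfr1382, listed for both antibodies, rose in H4K20me1 and had overlapping Pol II S2P scores. Olfr1382 had H4K20me1 scores of 66 and 101 in Ctrl against 271 and 247 in sKO (1.65 ± 0.37, limma, adjusted p = 2.1e-05), and for Pol II S2P it had 10 and 17 in Ctrl against 22 and 16 in sKO. For Olfr15, H4K20me1 rose by 1.84 on the log2 scale while the mean Pol II S2P score was 27.5 ± 0.71 (SD, n = 2) in Ctrl and 21 ± 9.9 in sKO. Neither Pol II S2P difference was tested, because the mean scores were under 50. Of the other lists, 9 olfactory signalling genes, 11 genes of receptor choice and 1 other chemoreceptor, Tas1r3, were tested for Pol II S2P and 0 were called.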

How the data were processed

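H4K20me1 and Pol II S2P CUT&RUN of cultured MuSCs was analysed in 2 Ctrl and 2 sKO libraries per antibody. The IgG libraries were not analysed here. Per the labels and methods, the authors trimmed reads with Trimmomatic 0.39, aligned them to mm10 (GRCm38) with STAR 2.7.3a keeping unique alignments, and removed duplicates with Picard 2.21.7. SICER 0.0.41 and MACS2 2.1.1 are named in the submitters' processing notes. The deposited values are a score per union peak and library, described by the authors as coverage normalised by spike-in and rounded to whole numbers, so they were not treated as counts. A further deposited column holds the fraction of the peak that lies inside its listed gene. The spike-in scale could not be checked here, and every difference on the deposited scale rests on it.

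Scores were summed by gene identifier. Autosomal genes with a mean score over 50 were tested with limma 3.58.1 in R 4.3.3 (lmFit, and eBayes with a trend) on log2(score + 1), with Benjamini-Hochberg adjustment over all genes tested, and called where the adjusted p was less than 0.1 and the log2 fold change exceeded 0.5 in size. The pseudocount of 1 understates changes of low genes. The procedure was tested on simulated data. The limits follow the study's methods. The upstream sequence of a further named gene is not reported here. Other work used Python 3.11.15, numpy 2.4.6, pandas 2.3.3 and pysam 0.24.0. All 96 listed receptor genes were found in GENCODE M21 with the same start and stop, 94 with the same symbol.

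Named for H4K20me1 were the gene with the highest mean score in each array with 3 or more tested receptor genes, the 4 highest and 4 lowest log2 fold changes, up to 5 genes whose libraries overlap, and genes in both tables. Vmn genes and genes outside the families were named as further examples after their values were seen. For Pol II S2P, the 5 tested genes and the next 6 by mean score were named. The members, gene lists and named genes were chosen with earlier results of these data known. Alternatives covered scaling, pseudocount, minimum score, single libraries left out, a replicate block, peak overlap and the definition of neighbours.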

Additional observations from a re-analysis of the deposited data

Results flagged for a closer look

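Signal outside the rule was found in 12 further identifiers that the H4K20me1 table lists with no symbol and that GENCODE M21 names as Olfr or Vmn genes. Their summed scores were 1522 and 2217 for Ctrl, and 3956 and 4800 for sKO. The median log2 fold change was 1.34, and 11 of the 12 were called higher by limma on the deposited scale, against a background of 92.3%. In 12 of 12 both sKO libraries were above both Ctrl libraries, against a background of 96.5%. Both counts are near these shares. With these genes added, the median over receptor genes was 0.87.

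Inside the arrays, 56 H4K20me1 peaks were listed with no gene, beside 259 listed with one. They had a median length of 5600 bases, with summed scores of 6127 and 8718 for Ctrl, and 15917 and 17743 for sKO, a log2 ratio of sums of 1.18, against 1.08 for the peaks listed with a gene. Per kilobase, their median score was 16.8 and 26.5 in Ctrl and 44.7 and 48.7 in sKO. The peaks are the same in all 4 libraries, so the covered length does not differ between genotypes.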

How the results depend on the processing

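The scale between libraries set the direction of the H4K20me1 change. With equal totals the median log2 fold change of receptor genes was -0.14, with 8 called higher and 6 lower, and after quantile normalisation it was -0.54, with 1 higher and 40 lower, where 10.3% of all tested genes were called higher and 11.1% lower. Both scalings remove a shift common to all genes by construction. Relative to all tested genes and to neighbours, the median was -0.54 and -0.57 after quantile normalisation. With a minimum mean of 200, which keeps 42 receptor genes, it was -0.025 and -0.062, and against neighbours with genes under a mean of 300 in both groups, an alternative chosen after seeing the data, -0.53. For Pol II S2P, equal totals and quantile normalisation each called 1 receptor gene higher, Olfr1390, and a minimum mean of 200 left none to test. The cause of these differences was not tested.

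Leaving out single libraries gave 20 to 80 H4K20me1 receptor genes called higher and 0 to 1 lower, a median of 0.49 to 1.24, and a median relative to all genes of -0.41 to -0.087 and to neighbours of -0.44 to -0.12. The lowest count came without sKO replicate 2, with 32 without sKO replicate 1 and 41 without Ctrl replicate 1, and 38.2%, 53.8% and 81.6% of all genes called higher in these settings. Without Ctrl replicate 2 it was 97.3%. A lone library is assumed there to vary like the other group. In single genes the log2 fold change crossed 0 in Olfr790 (-0.018 to 1.55), Olfr395 (-0.25 to 0.87), Olfr285 (-0.12 to 0.79), Vmn1r237 (-0.36 to 1.02) and, for Pol II S2P, Olfr16 (-0.83 to 0.15) and Olfr70 (-0.25 to 0.22).

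The replicate number was also fitted as a block. The deviations of same-numbered libraries had a correlation of 0.041 (H4K20me1) and -0.043 (Pol II S2P), and the numbers were not taken as pairs. With the replicate block 62 receptor genes were called higher, and 12718 of all genes against 12690 without it. With the block and equal totals, 8 were called higher and 8 lower, the median was -0.14, and 1 was called higher for Pol II S2P.

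With equal totals the log2 fold change turned negative in Olfr1412 (-0.18), Olfr790 (-0.21), Olfr222 (-0.28), Olfr393 (-0.78), Olfr395 (-0.66), Olfr410 (-0.29), Olfr285 (-0.64), Olfr282 (-0.18), Vmn1r237 (-0.63), Olfr157 (-0.064), Olfr1329 (-0.47), Olfr1328 (-0.63), Olfr523 (-0.075) and Olfr876 (-0.019). After quantile normalisation it was negative in Olfr1412 (-0.29), Olfr1358 (-0.11), Olfr790 (-0.66), Olfr222 (-0.37), Olfr393 (-1.27), Olfr395 (-1.15), Olfr410 (-0.61), Olfr285 (-1.05), Olfr282 (-0.53), Vmn1r237 (-1.36), Olfr1420 (-0.0041), Olfr157 (-0.40), Olfr1329 (-0.79), Olfr1328 (-0.94), Olfr545 (-0.062), Olfr523 (-0.27) and Olfr876 (-0.38). Of 240 values for the 30 genes fitted, 159 kept their direction and side of the threshold. Of 99 summary values, 73 were labelled the same. Many of these were counts of 0 against a main count of 0, for Pol II S2P and for H4K20me1 genes called lower. The share labelled the same is therefore no measure of how stable the other values were. A median was so labelled if its sign held and it moved by less than the spread between replicates. A count of called genes was so labelled if it was equal or its ratio to the main count stayed within a set limit, so such counts can still differ.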

Other observations

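Of 10 annotated X-linked Olfr or Vmn genes, 7 were listed for H4K20me1 and none for Pol II S2P. The study's rule leaves X and Y out of the test. Their summed scores were 4570 and 6686 for Ctrl, and 6221 and 6848 for sKO, with a median log2 fold change of 0.22. In 1 of the 7 both sKO libraries were above those of Ctrl, where 96.5% of tested autosomal genes had this order. Other X-linked genes were not examined, so these values cannot be read as a trait of receptor genes. The study used female and male animals, and the part of sex was not tested.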
